A study of Homo sapiens with 3 samples.

Results

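The transcriptome described here is that of the scramble control cells, 1 library of the 3 in the study, and covers 50867 genes with a value. The cells are labelled UM-UC-3, a line established from a human bladder carcinoma. They were infected with a lentivirus carrying a scramble short hairpin RNA and kept under puromycin for 2 weeks, in DMEM with 10% fetal bovine serum, penicillin and streptomycin, and polyA+ RNA was sequenced with a stranded mRNA kit. Both other libraries carry hairpins against BLACAT2 (LINC00958), a long non-coding RNA, in the same line under the same puromycin selection, and their values were not used. A selected, virus-infected population is not the untreated line, and with 1 library no level has a replicate check and no test was made. Intervals below are exact 95% intervals that cover counting error only.

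A cancer cell line keeps parts of the programme of the tissue it came from. Urothelium, the lining of the bladder, is a layered epithelium whose basal cells carry keratins, laminin receptors and cadherins, and whose surface cells make uroplakins. Carcinoma cells often also make matrix proteins and intermediate filaments usual in mesenchymal cells, such as fibronectin and vimentin. Levels of RNA from 1 culture describe which of these programmes are transcribed and how strongly, relative to other genes of the same cells.

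The library held 16424422 counts, and 25872 genes had at least 1. A level of at least 1 FPKM (fragments counted, scaled to gene length in kilobases and to the library total) was taken as detected. By that measure 22.5% of all genes were detected, 11428 in number, and 50.7% of protein-coding genes, 9984 of 19690. Counts of detected members in lists of protein-coding genes below are to be read against that 50.7%. A level of at least 10 FPKM was reached by 14.7% of protein-coding genes. Protein-coding genes took 97.4% of counts, the mitochondrial genome 3.88% and long intergenic RNAs 0.478%. A gene with 0 counts may still have had up to 3 counts by the limit used here, which is 0.183 CPM, counts scaled to the library total.

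Properties of the deposited values touch each level below. First, the gene length behind the FPKM equalled the sum of all distinct exons, with overlapping exons added repeatedly, for 88.3% of 12212 genes with over 50 counts. That length was a median 1.55 times the merged exon length, and 1.92 times for genes with 16 or more transcripts. FPKM therefore tends to understate genes with many transcripts, so a level over merged exon length is given beside it where it matters: ACTB, cytoplasmic actin, had 436 FPKM and 1094 over merged exons. Second, genes that share over 50% of their exon bases with other genes had few counts.

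Of the 11025 protein-coding genes with no shared exon bases, 22.3% had 0 counts and 48.0% reached 1 FPKM. Genes that shared up to 10% or 10 to 25% of their bases were more often detected, with 62.3% and 61.4% at 1 FPKM, and from 50 to 75% sharing it was 23.1%. Of the 254 genes with every exon base shared, 97.6% had 0 counts. Where over 50% of the bases were shared on the opposite strand alone, 26.5% of 136 genes had 0 counts and 25% reached 1 FPKM. For sharing on the same strand alone these were 66.2% and 5.85% of 547 genes. Above 75% sharing, 53.1% of 49 genes had 0 counts for the opposite strand alone, against 78.3% of 397 for the same strand alone. A low level in a gene with many shared exon bases is therefore given with its shared percentage and cannot be read as absence.

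**Figure D1:**
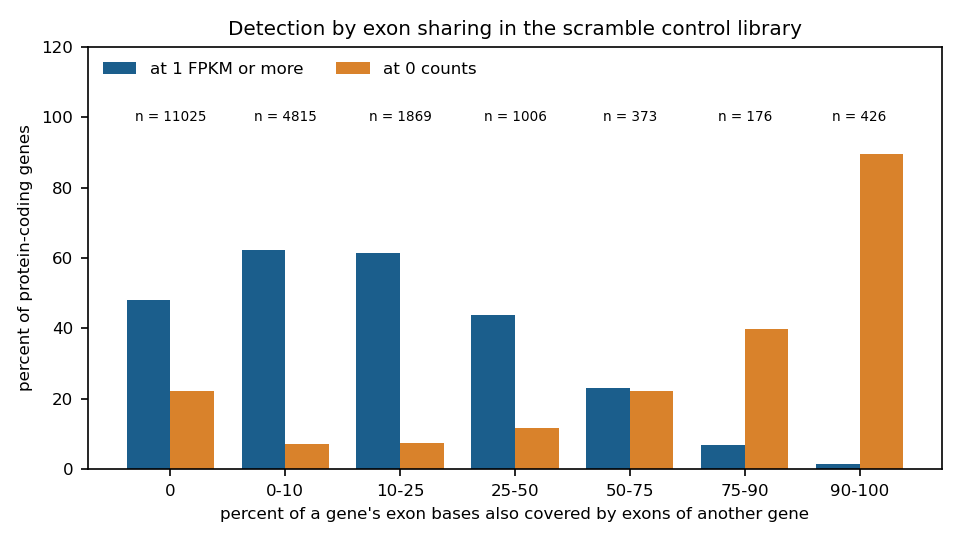
Percent of protein-coding genes at 1 FPKM or more (blue bars) and at 0 counts (orange bars), by the percent of a gene's exon bases that exons of another gene also cover; n is the number of genes in each class. Between 90 and 100% sharing, 89.7% of 426 genes had 0 counts and 1.41% reached 1 FPKM.

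Among the most abundant transcripts, nuclear genes of matrix and cytoskeleton stood beside the mitochondrial genome. Of the 25 genes of highest FPKM, ribosomal RNA and pseudogenes left out, 12 were mitochondrial, led by MT-CO2 with 6839 FPKM and MT-CO1 with 5794 FPKM, which encode subunits of cytochrome oxidase. FN1, fibronectin, an adhesive glycoprotein of the matrix (chr2:215360440-215436172, hg38), had 908025 counts, 5.53% of all counts, and 1800 FPKM. No other gene reached 1% of counts, since the next, MT-CO1, held 0.894%.

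Next by FPKM among nuclear genes stood TMSB10, thymosin beta 10, an actin monomer-binding peptide, with 1655 FPKM. S100A11, a calcium-binding protein, had 1089 FPKM. Further nuclear genes of this group were ENO1 (enolase, glycolysis) with 446 FPKM, ACTB, LGALS1 (galectin, a sugar-binding protein) with 435, TAGLN2 (an actin-binding protein) with 406, SFN (stratifin, an epithelial adaptor protein) with 382, FTL (ferritin light chain, iron storage) with 371, SPARC (a matrix glycoprotein) with 352 and PCNA (the DNA polymerase clamp) with 343 FPKM. Over merged exon length, 22 of the 25 genes stayed among the 25 highest, and FN1 had 3193.

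**Figure D2:**
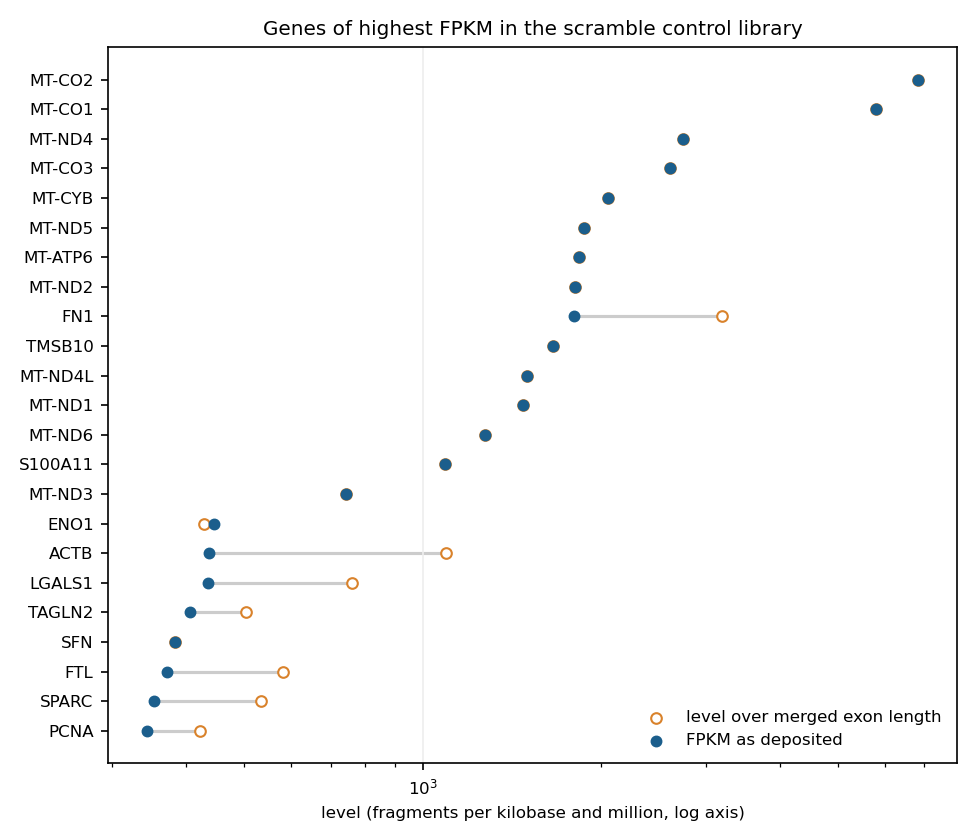
Genes among the 25 of highest FPKM in the scramble control library, 23 of which are drawn, on a log axis; filled points are the deposited FPKM and open points the level over merged exon length. FN1 moves from 1800 to 3193 and ACTB from 436 to 1094, while the mitochondrial genes, which have 1 transcript each, keep their level.

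Transcription of abundant genes starts at promoters, many of which are rich in CpG dinucleotides. The 100 bases before the start are shown for the 4 nuclear genes of highest FPKM with a single RefSeq window. They are also shown for a liver gene, a urothelial keratin and a growth factor near or at 0 counts. The RefSeq start is not always the outer end of the gene as counted. For FN1, S100A11 and ENO1 the counted gene reaches chr2:215436172, chr1:152047907 and chr1:8879249, beyond the printed bases. The counted TMSB10 gene overlaps its printed bases. The genes near 0 were picked by name and not by rank, so they do not stand for silent genes as a class. They come from RefSeq (GRCh38.p14), read 5′ to 3′ on the gene's strand, with CpG dinucleotides in capitals. Their places are chr2:215436069-215436168, minus strand (FN1), chr2:84905556-84905655, plus strand (TMSB10), chr1:152037005-152037104, minus strand (S100A11), chr1:8878687-8878786, minus strand (ENO1), chr4:73404187-73404286, plus strand (ALB), chr17:40885243-40885342, minus strand (KRT20) and chr7:81770048-81770147, minus strand (HGF).
FN1: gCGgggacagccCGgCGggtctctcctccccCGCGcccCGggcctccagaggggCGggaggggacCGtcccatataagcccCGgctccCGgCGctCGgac
TMSB10: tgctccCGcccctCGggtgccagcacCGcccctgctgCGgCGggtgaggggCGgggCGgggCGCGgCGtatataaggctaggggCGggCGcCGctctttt
S100A11: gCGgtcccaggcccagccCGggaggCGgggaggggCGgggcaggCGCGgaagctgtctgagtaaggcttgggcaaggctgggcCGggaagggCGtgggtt
ENO1: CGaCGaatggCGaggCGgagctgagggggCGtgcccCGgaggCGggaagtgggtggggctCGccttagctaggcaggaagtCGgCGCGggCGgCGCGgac
ALB: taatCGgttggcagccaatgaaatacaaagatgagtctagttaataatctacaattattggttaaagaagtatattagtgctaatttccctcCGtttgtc
KRT20: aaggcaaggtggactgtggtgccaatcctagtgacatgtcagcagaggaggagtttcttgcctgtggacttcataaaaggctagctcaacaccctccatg
HGF: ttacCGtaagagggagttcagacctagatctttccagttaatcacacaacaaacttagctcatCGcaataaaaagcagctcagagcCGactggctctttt

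In these stretches the 4 abundant genes held 12 (FN1), 13 (TMSB10), 8 (S100A11) and 14 (ENO1) CpG dinucleotides. The 3 genes near 0 held 2 (ALB, 1 count), 0 (KRT20, 0 counts) and 3 (HGF, 0 counts). Over the whole window of 300 bases, the observed CpG number over that expected from base composition ran from 0.781 (S100A11) to 0.882 (ENO1) in the first group and from 0.138 (KRT20) to 0.481 (ALB) in the second. All 35116 windows of the table had a median of 0.579, with quartiles at 0.229 and 0.856, so FN1 and ENO1 lay above the upper quartile and KRT20 below the lower. TMSB10, S100A11, ALB and HGF lay between the quartiles. The motif TATAA, searched on both strands, occurred in the printed bases of FN1 and TMSB10, and in the same 100 bases of 9% of all windows (20.4% over the whole 300 bases). Promoter windows matched 76.6% of the 15840 protein-coding genes with at most 10% shared exon bases, under the 80% set as the minimum, so no comparison over level classes was made.

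The lineage check against marker genes found both epithelial and mesenchymal markers in the library, and whether the same cells carried both cannot be told from bulk RNA. All 8 epithelial markers were detected, among them the simple keratins KRT7 (178 FPKM), KRT19 (133), KRT8 (52.5) and KRT18 (41.9), and EPCAM, an epithelial adhesion protein, with 30.3 FPKM. CDH1, E-cadherin, had 7.90 FPKM, and the claudins CLDN4 and CLDN7, tight junction proteins, had 12.7 and 5.01. Of the 5 mesenchymal markers 4 were detected: FN1, VIM (vimentin, an intermediate filament) with 45.5 FPKM, CDH2 (N-cadherin) with 31.2 FPKM and TWIST1 (a repressor of epithelial genes) with 1.85 FPKM. ZEB1, another such repressor, had 0.353 FPKM.

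Of the 5 basal markers 4 were detected. KRT5, the basal keratin, had 41.9 FPKM, CDH3, P-cadherin, 19.1 and CD44, the hyaluronan receptor, 32.1, whereas KRT14, the partner of KRT5, had 2.80 FPKM and TP63, the basal transcription factor, had 0.416 FPKM and 85 counts. Urothelial markers were detected in 4 of 8 cases. GATA3 and PPARG, transcription factors of luminal urothelium, had 5.78 and 5.10 FPKM, the uroplakin UPK1B had 4.38 and UPK2 1.27, FOXA1 had 0.776, UPK1A and UPK3A had 1 count each, and KRT20, the keratin of surface cells, had 0.

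No marker of fibroblasts (0 of 6), smooth muscle (0 of 4), leukocytes (0 of 5), endothelium (0 of 5), erythroid cells (0 of 3) or neurons (0 of 4) reached 1 FPKM. Their summed levels were 0.248, 0.197, 0.363, 0.310, 0.0354 and 0.639 FPKM, in that order, against 462 for the epithelial markers. DES (desmin), PTPRC (the leukocyte common antigen), CD3E, SPI1, HBB and GAP43 had 0 counts. These sets are short, and wider lists held some genes at 1 FPKM or more. They were 2 of 25 blood cell genes, 2 of 23 neuronal and glial genes and 1 of 16 endothelial genes. COL1A1, a collagen I chain outside the fibroblast set, had 24.6 FPKM.

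**Figure D3:**
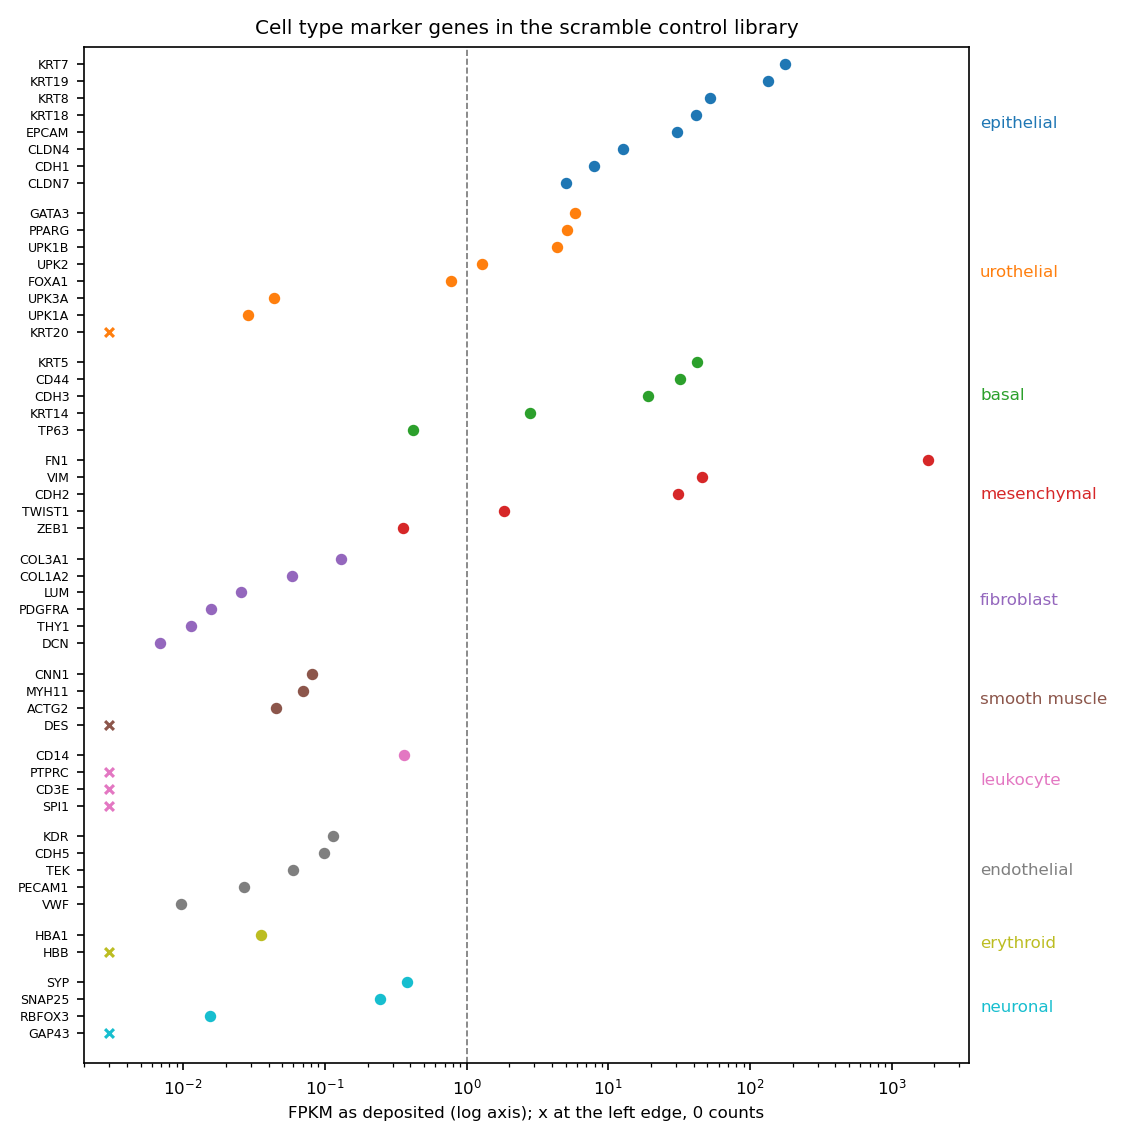
Deposited FPKM of 51 of the 53 marker genes by cell type on a log axis; each point is 1 gene, crosses at the left edge are genes with 0 counts, and the dashed line is 1 FPKM. All epithelial markers lie right of the line and all fibroblast, smooth muscle, leukocyte, endothelial, erythroid and neuronal markers lie left of it.

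CDKN2A and CDKN2B, adjacent cell cycle inhibitor genes often deleted in bladder cancer, had 3542 and 3241 counts (24.7 and 33.8 FPKM), and MTAP beside them 852 counts. CDKN2B and MTAP were chosen after their values were seen. Whether the cells are UM-UC-3 was not tested, and the library is named by its label throughout.

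Keratins form filaments as pairs of a type I and a type II chain. Of 38 keratin genes 13 were detected (34.2%, against 50.7% of protein-coding genes), and 11 had 0 counts. The median level was 0.227 FPKM over the whole list and 41.9 FPKM among those detected. KRT17, a keratin of basal and stressed epithelium, had 79.5 FPKM. The pair KRT8 and KRT18 stood near balance, with a ratio of FPKM of 1.25 (1.21 to 1.30). By contrast KRT5 exceeded its basal partner KRT14 (2.80 FPKM) 15 times (12.6 to 17.9), or 22.2 times over merged exon length. KRT6A, a keratin of activated epithelium, exceeded its partner KRT16 4.60 times (3.89 to 5.47). KRT6A has near-identical copies, and KRT18 and KRT14 have pseudogenes, so their counts are uncertain.

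Transcription factors of epithelial and urothelial cells were detected in 19 of 26 cases, at a median of 3.80 FPKM over the list. Among the highest were TBX3 (15.6 FPKM), a T-box repressor, GRHL2 (13.4), a grainyhead factor that sustains epithelial junction genes, and SOX9 (12.9). SOX2 had 0 counts. Factors tied to the mesenchymal state were detected in 17 of 25 cases, at a median of 2.89 FPKM. SNAI2 (22.8 FPKM), a zinc-finger repressor of E-cadherin, led, with SOX4 (19.6) and the Hippo pathway partners TEAD1 (17.9) and YAP1 (17.4). SNAI2 exceeded SNAI1 (10.7 FPKM) 2.13 times (1.88 to 2.43), and YAP1 exceeded its paralogue WWTR1 (2.40 FPKM) 7.23 times (6.58 to 7.96). ZEB1 and ZEB2 had 116 and 118 counts, both under 1 FPKM, and PRRX1 had 0.

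CDH2 exceeded CDH1 3.95 times in FPKM (3.73 to 4.18) and 2.18 times over merged exon length, so both cadherins were present with N-cadherin the higher on both scales. The luminal list, uroplakins with other luminal genes, had 6 of 17 detected, among them ERBB2 (5.21 FPKM), a receptor tyrosine kinase, TRAK1 (2.90), a mitochondrial transport adaptor, and VGLL1 (1.94), a TEAD cofactor. SNX31 had 0 counts, as did ADIRF, whose exon bases are 100% shared.

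HOX genes, which record position along the body axis, were detected in 11 of 39 cases and none reached 10 FPKM. HOXB7 (8.96 FPKM) and HOXB9 (5.73) were highest, then HOXC13 (2.21) and HOXA5 (1.81). Their median over the list was 0.523 FPKM.

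Laminins, the trimeric proteins of the basement membrane, differed widely in level. Of 12 genes 7 were detected. LAMB3, with 181 FPKM, and LAMA3, with 155, encode chains of the laminin that anchors epithelial cells. LAMC1 (54.6 FPKM) and LAMB1 (49.9), chains of more widely made laminins, differed little, and their order depended on the length used: LAMB1 over LAMC1 was 0.914 (0.888 to 0.940) in FPKM and 1.20 over merged exons.

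Collagen genes were detected in 16 of 44 cases. COL4A2 (85.1 FPKM), COL4A1 (70.1) and COL7A1 (36.6) encode chains of basement membrane and anchoring fibrils, and COL5A1 (80.3) a chain of fibrillar collagen. Over merged exons the collagen IV genes were lower, at 43.4 (COL4A2) and 42.8 (COL4A1), and COL5A1 higher, at 110.3. The paired chains of collagen IV were near balance, with COL4A1 at 0.823 times COL4A2 (0.802 to 0.844), or 0.987 over merged exons.

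Chains of collagens I, V and VI were not balanced. COL1A1, the main chain of type I collagen (chr17:50183289-50201632), had 5253 counts and 24.6 FPKM. COL1A2, which supplies the partner chain in the usual heterotrimer (chr7:94394561-94431232), had 16 counts and 0.0589 FPKM, giving a ratio of 418 (257 to 732) and of 373 over merged exons. COL5A1 exceeded COL5A2 (139 counts) 91.2 times (77.2 to 109), or 97.2 times. For collagen VI, COL6A1 was at 0.416 times COL6A2 (0.374 to 0.461) and 6.87 times COL6A3 (5.89 to 8.02). COL1A1, COL1A2, COL5A2 and these collagen VI genes share no exon base with another gene. COL9A1, COL19A1 and COL24A1 had 0 counts.

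Enzymes that fold and crosslink collagen were detected in 17 of 26 cases, a larger share than the collagens themselves. LOXL2, a lysyl oxidase, had 38.1 FPKM, COLGALT1, a collagen galactosyltransferase, 34.8, P4HB, the shared subunit of prolyl hydroxylase, 28.8, and PLOD2, a lysyl hydroxylase, 25.2.

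Matrix glycoproteins were detected in 24 of 47 cases (51.1%), near the 50.7% of all protein-coding genes. Beyond FN1 and SPARC, TGFBI, a collagen-binding protein induced by TGF-beta in many cells, had 326 FPKM and THBS1, thrombospondin, 132. WISP1 had 0 counts. Among 28 proteoglycan and hyaluronan genes 15 were detected (53.6%), also near the share of all protein-coding genes. They were led by the syndecan SDC4 (148 FPKM), then CD44, AGRN (agrin, 20.9) and SRGN (serglycin, 18.8), while FMOD and GPC5 had 0 counts.

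Only 5 of 22 matrix metalloproteinases were detected. MMP2, a gelatinase, had 78.5 FPKM and MMP14, the membrane-bound protease that activates it, also 78.5. MMP9, the other gelatinase, had 33.2 FPKM and MMP15 3.75. MMP3, MMP20, MMP21, MMP26 and MMP27 had 0 counts. MMP2 exceeded its inhibitor TIMP2 (20.1 FPKM) 3.92 times (3.76 to 4.08). For MMP9 against TIMP1 (28.1 FPKM) the order depended on length, at 1.18 (1.09 to 1.29) in FPKM and 0.807 over merged exons. MMP1, interstitial collagenase, had 28 counts, 0.0308 times TIMP1 (0.0204 to 0.0448).

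Of 18 genes of protease inhibitors and plasminogen activation 13 were detected. PLAU, urokinase, a plasminogen activator, had 90.7 FPKM, with 31.1% of its exon bases shared. PLAU exceeded PLAUR, its receptor (3.38 FPKM), 26.9 times (24.5 to 29.5). S100A10 (252 FPKM) and ANXA2 (168), partners in a plasminogen-binding complex, had a ratio of 1.5 (1.46 to 1.53).

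Integrins, receptors for matrix made of an alpha and a beta chain, were detected in 12 of 26 cases. ITGB1, the shared beta chain, had 227 FPKM, above every alpha chain: ITGA2 (50.1), ITGAV (44.6) and ITGA3 (39.5) came next. ITGA5, which pairs with ITGB1 to bind fibronectin, had 29.9 FPKM, 0.132 times ITGB1 (0.128 to 0.135), and FN1 was at 60.2 times ITGA5 (58.7 to 61.7). ITGA6 and ITGB4, the laminin receptor of hemidesmosomes, were within 1.32 times of each other (1.26 to 1.37). ITGAV exceeded ITGB3 15.6 times (13.7 to 17.8), with 51.6% of ITGB3's exon bases shared. ITGA8 had 0 counts.

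Desmosomes and tight junctions tie epithelial cells together. DSP, desmoplakin, the desmosome plaque protein, had 71458 counts and 285 FPKM, and DSG2, a desmosomal cadherin, 51.6, followed by EPCAM. Of 41 genes of tight junctions and desmosomes 21 were detected (51.2%), near the 50.7% of all protein-coding genes. DSG1, DSG4, CLDN8, CLDN17 and CLDN22 had 0 counts. Among cadherins and catenins 12 of 26 were detected, led by the catenins CTNNB1 (77.8 FPKM), JUP (43.9) and CTNNA1 (35.6), and CDH7, CDH8, CDH9 and CTNNA2 had 0 counts.

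Gap junction genes were detected in 9 of 23 cases, among them GJB5 (24.2 FPKM), PANX1 (16.5) and GJC1 (7.47), and GJA10, GJB1, GJC3 and GJD4 had 0 counts. Other adhesion receptors were detected in 21 of 34 cases: ALCAM (47.1 FPKM), L1CAM (42.4), a receptor known from neurons, and CD63 (38.9) and CD59 (26.6), membrane proteins of many cells. CADM2, CEACAM5, CEACAM6, SELE and SELP had 0 counts.

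Of 29 focal adhesion genes 23 were detected, among them the actin crosslinkers FLNA (102 FPKM), ACTN4 (79.9) and ACTN1 (50.1), and PARVG had 0 counts. Actins, tropomyosins and myosins were detected in 17 of 22 cases. MYH9, nonmuscle myosin heavy chain, had 226 FPKM, 13.8 times its paralogue MYH10 (13.4 to 14.3), and MYL12B, a myosin light chain, 194. ACTB exceeded ACTG1 3.27 times in FPKM (3.23 to 3.32) but 1.74 times over merged exons. TMSB10 exceeded TMSB4X 10.3 times (10.1 to 10.6), or 6.06 times. The intermediate filaments other than keratins were led by VIM, LMNB1 (33.7 FPKM), LMNB2 (30.9) and LMNA (22.6), the last 3 being nuclear lamins, and BFSP2 and DES had 0 counts. VIM and KRT18 were near equal, at a ratio of 1.09 (1.05 to 1.13).

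**Figure D4:**
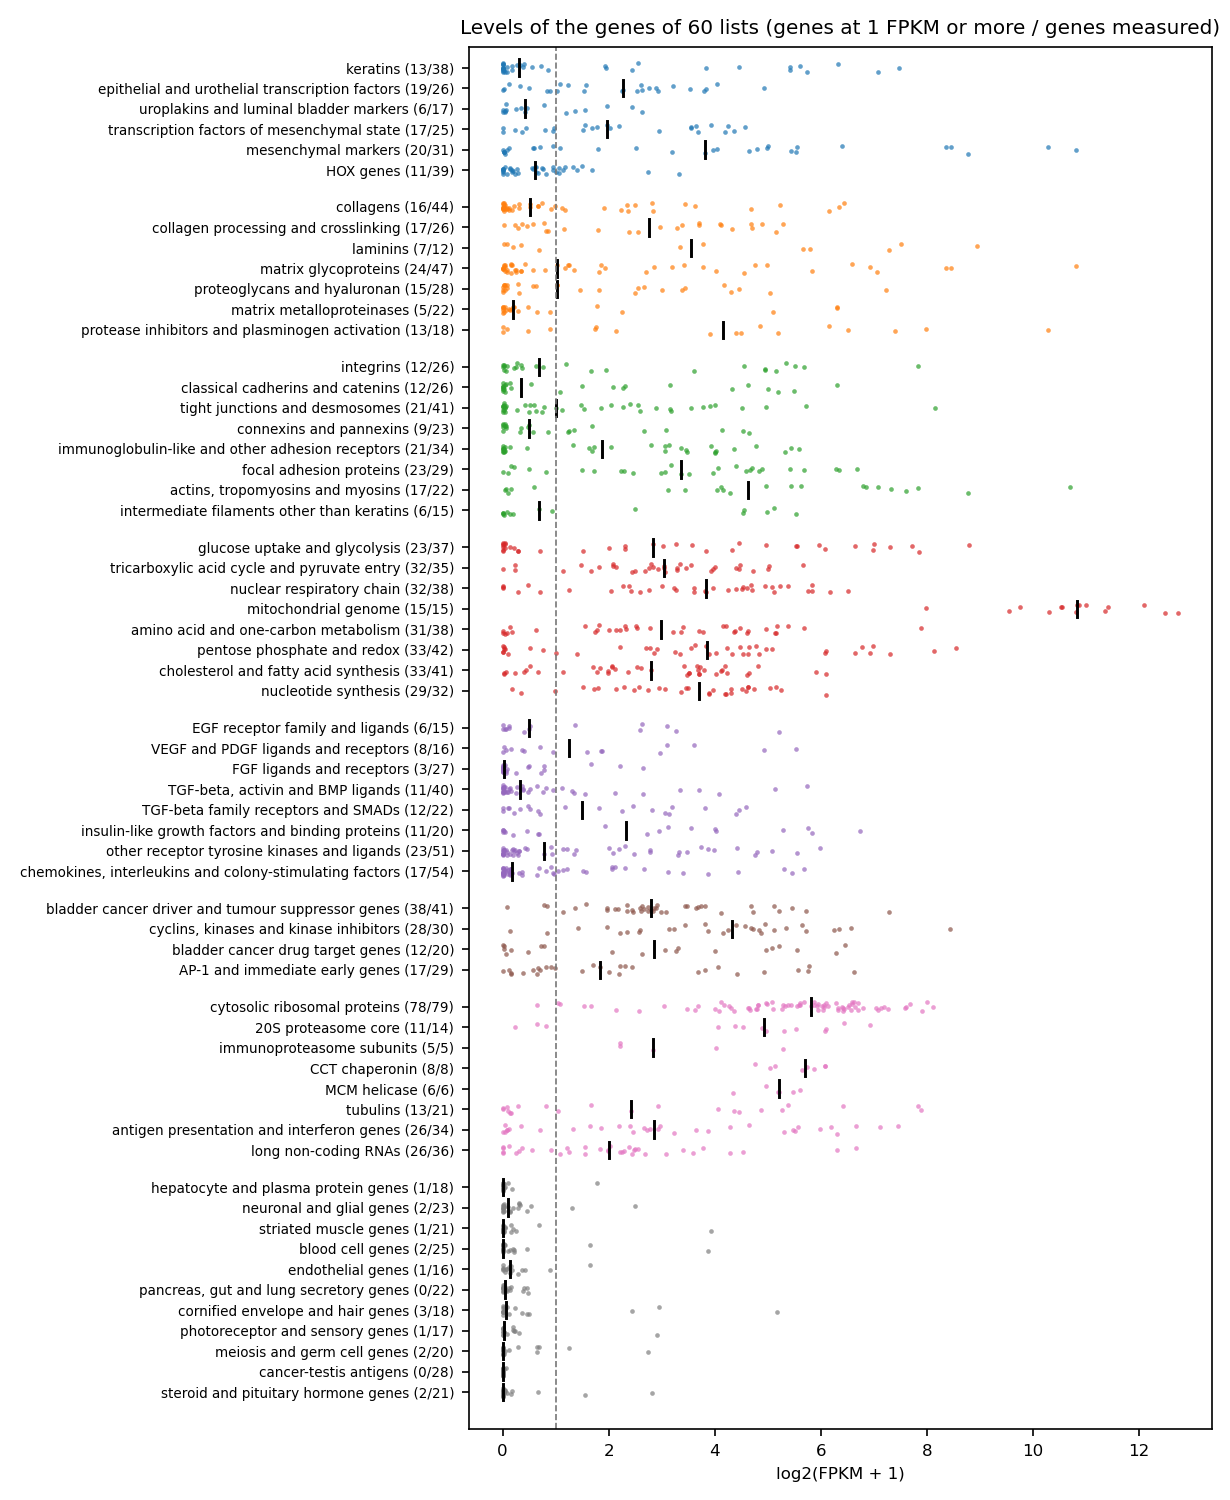
Level of each gene of 60 lists as log2(FPKM + 1); each point is 1 gene, black bars are list medians, the dashed line is 1 FPKM, and colours mark sections (lineage, matrix, adhesion, metabolism, growth factors, growth control, machinery, genes of other tissues). List medians run from 0.00 for cancer-testis antigens to 10.84 for the mitochondrial genome.

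Of the glycolysis genes a few were very abundant. ENO1, PGAM1 (phosphoglycerate mutase, 232 FPKM), GAPDH (208) and PKM (pyruvate kinase, 157) were the highest of 37 genes, 23 of which were detected, and the median of the list was 6.10 FPKM. PKM exceeded PKLR, the liver and red cell isoform (2 counts), 4380 times (1212 to 36165), or 8052 times over merged exons. ALDOA exceeded ALDOC (12 counts) 412 times (236 to 798), or 981 times over merged exons, and 53.5% of ALDOA's exon bases are shared. ENO1 exceeded ENO2, the neuronal isoform, 147 times (134 to 162), and 67.1 times over merged exons.

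Isoforms were less unequal at other steps. HK1, hexokinase, exceeded HK2 3.52 times (3.28 to 3.79). Phosphofructokinase was mostly the platelet form, with PFKP 6.29 times PFKL (5.96 to 6.65) and 11.5 times PFKM (10.6 to 12.4). LDHA exceeded LDHB 2.05 times (1.99 to 2.12), or 3.62 times over merged exons, with 33.4% of LDHB's exon bases shared.

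Of the glucose transporters SLC2A1 (46.1 FPKM) exceeded SLC2A3 25 times (22.6 to 27.7), and of the lactate transporters SLC16A3 was at 0.521 times SLC16A1 (0.495 to 0.547). LDHC, PGK2 and SLC2A2 had 0 counts, as did GAPDHS and PGAM2, with 60.8% and 100% of exon bases shared.

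Genes of the tricarboxylic acid cycle and pyruvate entry were detected in 32 of 35 cases, at a list median of 7.25 FPKM. FH (fumarase) had 49.6 FPKM, SDHB 31.5, IDH3B 31.2 and MDH1 25.5, and PDHA2, the testis isoform, 0 counts. IDH2 exceeded IDH1 2.91 times (2.68 to 3.15). The nuclear respiratory chain had 32 of 38 detected, led by ATP5B (90.1 FPKM), UQCRH (70.8), NDUFA1 (56.4) and ATP5C1 (55.7). COX4I2, COX8C and COX6A2, tissue-restricted isoforms, had 0 counts, while the common isoform COX4I1 had 3227. All 15 mitochondrial genome genes were detected, from 254 FPKM (MT-ATP8, 22.2% of exon bases shared) to 6839 (MT-CO2).

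Amino acid and one-carbon genes were detected in 31 of 38 cases. SLC7A5, the catalytic chain of a large neutral amino acid exchanger, had 235 FPKM. SLC3A2, the heavy chain it binds, was at 0.149 times SLC7A5 (0.146 to 0.153), or 0.388 times over merged exons. MAT2A, methionine adenosyltransferase, had 50.7 FPKM. TDO2 had 0 counts.

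Redox genes were detected in 33 of 42 cases, led by FTL, MT2A, a metallothionein (282 FPKM), TXN, thioredoxin (157), and PRDX1, a peroxiredoxin (125.2). FTH1, the ferritin heavy chain, was at 0.0813 times FTL (0.0780 to 0.0848), or 0.156 over merged exons, with 62.4% of FTH1's exon bases shared and many pseudogene copies. SOD3 and MT1E had 0 counts, as did GSTM1 with 38.3% of bases shared. NFE2L2, the oxidative stress factor, was at 0.427 times its inhibitor KEAP1 (0.398 to 0.458).

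For lipids, 33 of 41 genes were detected: SCD, stearoyl-CoA desaturase, had 67.3 FPKM, ACLY, of acetyl-CoA supply, 27.3 and SQLE, of cholesterol synthesis, 24.0. Nucleotide synthesis had 29 of 32 detected. TK1, thymidine kinase, had 67.5 FPKM, HPRT1 36.7, RRM1 34.5 and PRPS1 32.0, and the ratio of RRM1 to RRM2, its partner in ribonucleotide reductase, was 1.45 (1.39 to 1.51).

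Among EGF family genes, the receptor EGFR (36.0 FPKM) stood above each of its ligands. TGFA, AREG and HBEGF were at 0.238 (0.223 to 0.254), 0.209 (0.184 to 0.235) and 0.139 (0.124 to 0.155) times EGFR, and EREG at 0.00921 (0.00641 to 0.0128). ERBB2 had 5.21 FPKM. Of the 15 genes 6 were detected, and NRG3 had 0 counts.

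In 4 pairs of the PDGF and VEGF families the ligand stood above the receptor. PDGFB (45.6 FPKM) exceeded its receptor PDGFRB (152 counts) 49.8 times (42.3 to 59.0), and PDGFA exceeded PDGFRA (3 counts) 485 times (165 to 2356). VEGFC (29.6 FPKM), the lymphatic growth factor, exceeded its receptor FLT4 (56 counts) 103 times (78.9 to 137), and VEGFA exceeded KDR (13 counts) 23.4 times (13.6 to 44.1), or 42.9 over merged exons. VEGFB had 11.1 FPKM, and FIGF, another ligand of FLT4, had 0 counts.

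FGF ligands and receptors were nearly all below 1 FPKM. Of 27 genes 3 were detected: FGF18 (5.24 FPKM), the decoy receptor FGFRL1 (3.62) and FGFR4 (2.16). FGF1 had 0.719 FPKM. FGF2 and FGFR1 had 51 and 243 counts, at a ratio of 0.474 (0.344 to 0.644).

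Of the TGF-beta superfamily ligands and their antagonists 11 of 40 were detected, and the row of TGFB1 had no usable value. INHBA, the activin A chain, had 52.1 FPKM, and the antagonists FSTL1 34.3 and FSTL3 15.96, with BMP1, a protease, at 12.1. INHBA exceeded ACVR2A, an activin receptor with 92 counts, 122 times (99.5 to 152), or 76.6 over merged exons. Receptors and SMADs were detected in 12 of 22 cases (54.5%), near the 50.7% of all protein-coding genes. Highest were BMPR2 (23.0 FPKM), TGFBR2 (21.1), SMAD3 (20.1) and ENG (13.0). TGFB2 was at 0.0732 times TGFBR2 (0.0620 to 0.0858), with 26.6% of TGFB2's exon bases shared.

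The insulin-like growth factor list was led by binding proteins, while the ligands have shared exons, so that their levels cannot be set against them. IGFBP4 had 106 FPKM, IGFBP7 56.2, IGFBP5 53.1 and STC2, a stanniocalcin in the same list, 37.9. IGF2 was at 0.0477 times the receptor IGF1R (0.0363 to 0.0618), with 75% of IGF2's exon bases shared, and IGF1 had 0 counts with 82.4% shared. IGFBP1 and INS, the latter with 31.7% shared, also had 0 counts. Of the 20 genes 11 were detected (55%), near the 50.7% of all protein-coding genes.

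Other receptor tyrosine kinases and ligands were detected in 23 of 51 cases. EPHA2 had 62.5 FPKM, AXL 46.1, MET 32.8 and EPHB2 26.7. MET had 5572 counts and its ligand HGF 0. GAS6, the ligand of AXL, was at 0.221 times AXL (0.208 to 0.234). EPHA3, EPHA5, EPHA7, LTK and MUSK had 0 counts.

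Cytokines were detected in 17 of 54 cases. CSF2, a colony-stimulating factor, had 50.2 FPKM, CXCL1, a neutrophil chemokine, 43.0, LIF 38.4 and CXCL8 20.7. CXCL12 exceeded its receptor CXCR4 (31 counts) 8.88 times (6.17 to 13.2), or 5.42 over merged exons.

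**Figure D5:**
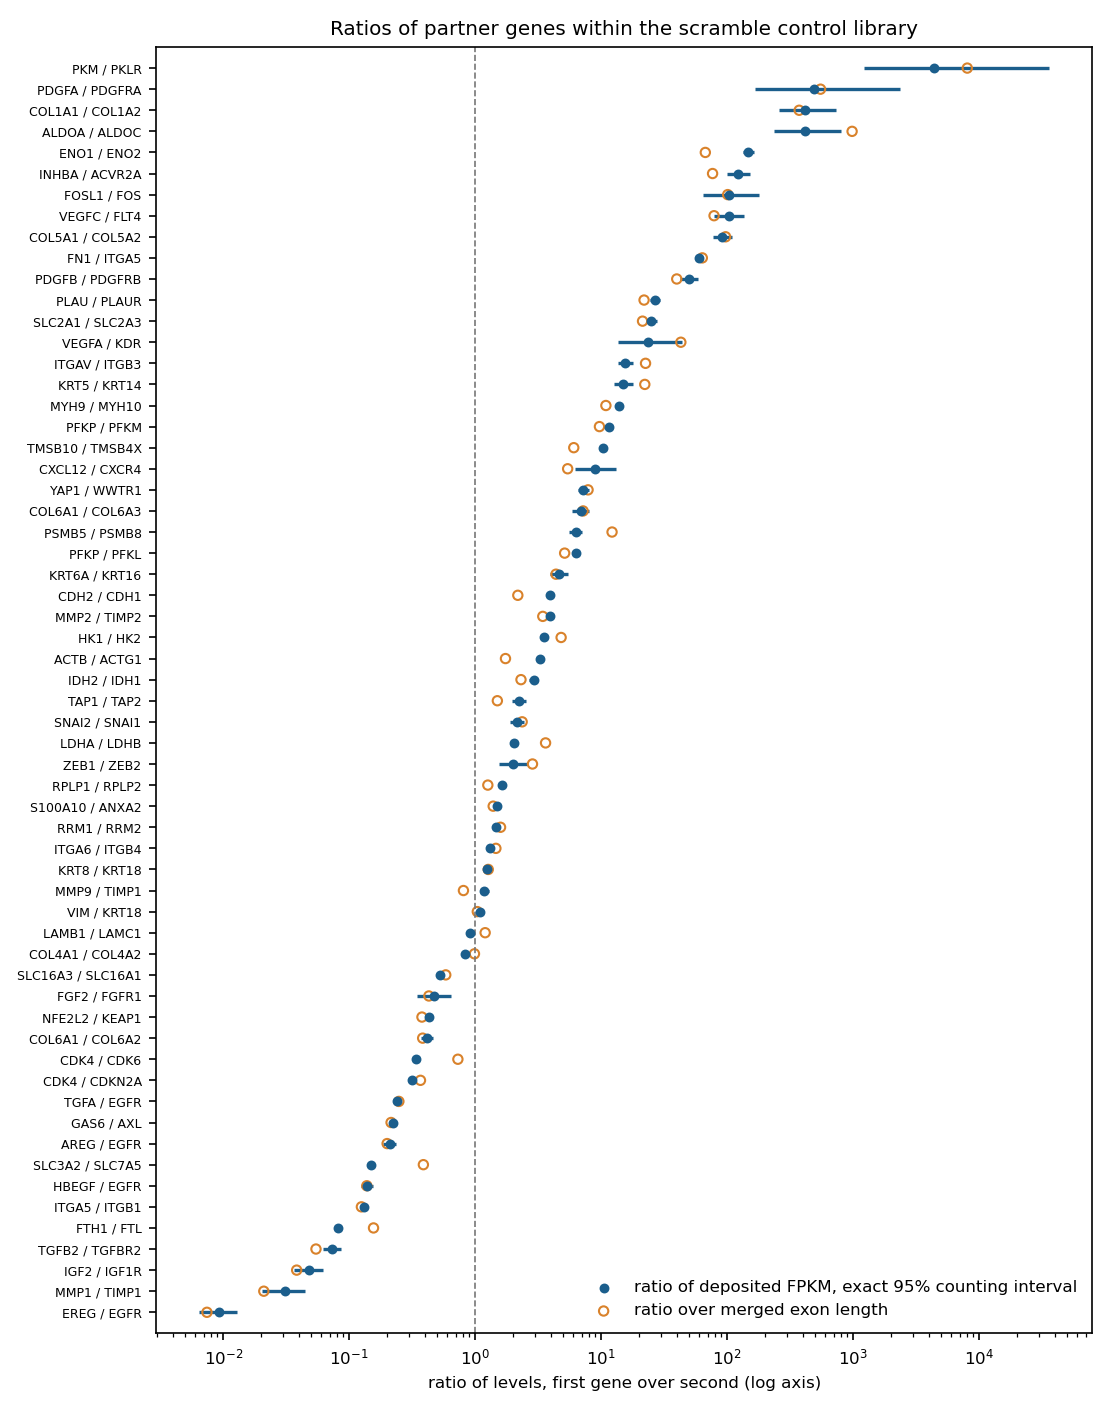
Ratios of levels for 60 of the 65 pairs of partner genes on a log axis, first gene over second; filled points with bars are the ratio of deposited FPKM with its exact 95% counting interval, open circles the ratio over merged exon length. COL1A1 over COL1A2 lies at 418 and 373, and 22 of all 26 pairs at 10-fold or more in FPKM are also at 10-fold or more over merged exons.

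Genes of bladder cancer and of the cell cycle were almost all transcribed. Of 41 driver and tumour suppressor genes 38 were detected, led by RHOA (155 FPKM), CCND1 (51.7), NRAS (42.9) and EGFR. Of 30 cyclins, kinases and inhibitors 28 were detected: PCNA, TOP2A (94.3 FPKM), a topoisomerase of dividing cells, CDC20 (80.7) and CCNB1 (75.3), both of mitosis. CDK4 was at 0.342 times CDK6 (0.319 to 0.366), or 0.729 over merged exons, and at 0.314 times its inhibitor CDKN2A (0.292 to 0.338).

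Of 20 genes whose products are targets of drugs in bladder cancer 12 were detected. F3, tissue factor, had 77.2 FPKM, and AXL and EGFR had 46.1 and 36.0, while VTCN1 had 0 counts. AP-1 and immediate early genes were detected in 17 of 29 cases: JUNB (97.2 FPKM), IER3 (53.9), DUSP1 (52.9) and JUN (46.5). FOSL1 (11.8 FPKM) exceeded FOS (17 counts) 104 times (64.5 to 179). EGR4 had 0 counts.

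Genes of stable complexes gave a measure of how far levels of partner subunits scatter in 1 library. Subunits of the CCT chaperonin, a folding machine, spread over 2.55 times from CCT5 (26.1 FPKM) to CCT6A (66.6), an SD of 0.51 on the log2 scale. The MCM replicative helicase spread over 2.48 times (SD 0.46), from MCM5 to MCM7, or 4.43 times over merged exons. The highest MCM genes were MCM7 (47.9 FPKM), MCM4 (43.3), MCM3 (36.4) and MCM6 (35.6).

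The 20S proteasome core had an SD of 2.96, with PSMB7 (120 FPKM), PSMA7 (85.4), PSMB1 (67.0) and PSMB3 (66.4) highest and PSMA6 lowest (30 counts, 0.171 FPKM). Without the 3 subunit genes that share over 10% of their exon bases the SD was 0.94, and those 3 had a median of 0.556 FPKM against 38.5 for the other 11. PSMB5 exceeded its immunoproteasome substitute PSMB8 6.27 times (5.57 to 7.08), or 12.2 over merged exons.

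Ribosomal protein genes, 79 in number, had 78 detected, a median of 55.6 FPKM and an SD of 1.84. Without those that share over 10% of their exon bases the SD was still 1.65. RPS12 (274 FPKM), RPL11 (254), RPS27 (239) and RPL35 (206) were highest, and RPLP1 exceeded its stalk partner RPLP2 1.63 times (1.57 to 1.70). RPL17 (75 counts) was the lowest, with 35.3% of its exon bases shared. Ribosomal protein genes have many processed copies: RPL7 had 586 counts and its pseudogene RPL7P9 10128, a pair chosen after its values were seen, so single levels in this family are uncertain.

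Tubulins were detected in 13 of 21 cases, led by TUBB (234 FPKM), TUBB4B (228), TUBA4A (84.7) and TUBB2A (40.99), and TUBA3C and TUBB8 had 0 counts. Antigen presentation and interferon genes were detected in 26 of 34 cases. B2M, the light chain of MHC class I, had 175 FPKM, IFI6 137 and IFI27 78.3, the IFI genes being known as interferon-induced. TAP1 exceeded TAP2, its partner in the peptide transporter, 2.22 times (1.95 to 2.52), or 1.5 over merged exons. HLA-DQA1, of class II, had 0 counts.

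The RNA targeted in the other libraries, LINC00958 (BLACAT2, ENSG00000251381, a long intergenic RNA at chr11:12961842-12989548), had 938 counts here and 9.56 FPKM (8.96 to 10.2), or 19.9 over merged exons. It ranked 3140 by FPKM and shares no exon base with another gene. Of 36 listed long non-coding RNAs 26 were detected, and LINC00958 was the seventh highest of the list. Over all genes, 4.12% of 7235 long intergenic RNAs and 6.31% of 5403 antisense RNAs reached 1 FPKM, so the list does not stand for its class. LINC00657 (NORAD), a cytoplasmic RNA, had 99.8 FPKM, UCA1, known from urothelial carcinoma, 78.2, NEAT1, the paraspeckle RNA, 22.1 and ZFAS1 18.6. CASC9, HOTTIP, PCA3 and XACT had 0 counts.

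Genes that mark other tissues were nearly silent. Across 11 lists, 229 genes were measured, 104 had 0 counts and 15 reached 1 FPKM. Over all 19690 protein-coding genes, 81.8% had at least 1 count and 50.7% reached 1 FPKM. Of the 104, 4 have over 50% of their exon bases shared (CD68, CDSN, GH1 and GNAT2), so their 0 cannot be read as absence. Cancer-testis antigens, germline genes often switched on in tumours, had 25 of 28 at 0 counts and none at 1 FPKM. Among olfactory receptor genes 357 of 375 had 0 counts. Secretory genes of pancreas, gut and lung had none of 22 at 1 FPKM.

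The 15 exceptions were of several kinds. IVL, involucrin, a precursor of the cornified envelope, had 35.0 FPKM, and the skin genes KLK5 and KRT10 had 6.75 and 4.41. TNNT1, slow skeletal troponin T, had 14.3 FPKM and 994 counts. CSF1R, the macrophage colony-stimulating factor receptor, had 13.7 FPKM and 1496 counts, while PTPRC and SPI1, markers of the cells that usually carry it, had 0.

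Below these lay OPN1SW, a cone opsin, with 6.5 FPKM, HSD3B1, of steroid synthesis, with 6.07, TDRD1, of germ cells, with 5.68, and NEFH, a neurofilament, with 4.63. SERPINA1, a plasma protease inhibitor, had 2.44 FPKM, GATA2 2.15, PDPN 2.15, CGB5 (which has near-identical copies) 1.96, MBP 1.48 and ZP3 1.38.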

How the data were processed

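PolyA+ RNA of 3 libraries was sequenced, and 1 library, the scramble control, is described. The authors deposited whole-number counts per gene and FPKM (counts scaled to gene length and library total), per the file headers. The submitters' processing notes name the build hg38 and the aligner TopHat2 2.0.9. No source used here gives the counting tool, its strand setting or the annotation release. Of 50871 lines, 50867 held a gene with a value, and the row of TGFB1 was broken and left out. Of these IDs 98.5% were in GENCODE 29, which gave gene types, merged exon lengths and shared exon bases, computed with Python 3.11.15, pandas 2.3.3 and scipy 1.17.1. Ratios of FPKM have exact conditional binomial intervals. A simulation of them drew Poisson counts, as the intervals themselves assume, for genes with at least 10 counts. It therefore cannot tell how well they fit real counts or pairs with fewer counts. Levels have exact Poisson intervals, which were not simulated. With 1 library no test, p-value or replicate SD was possible. Detection was 1 FPKM, and list medians are of log2(FPKM + 1). Alternatives were other minimums, a pseudocount of 0.1, CPM and, added after seeing the data, merged exon length and leaving out genes with over 10% shared exon bases. Genes were named by rule: LINC00958, the 25 highest by FPKM (ribosomal RNA, small RNAs and pseudogenes skipped), the 4 highest of each list with at least 10 counts, each gene of other tissues at 1 FPKM or more, members at 0 counts where at most 6 or defining a cell type, and partner pairs. Members and lists were chosen with earlier results of these data known. Some genes that the rule names are not reported here.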

Additional observations from a re-analysis of the deposited data

How the results depend on the processing

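The number of genes detected was 11428 at 1 FPKM, 14002 at 0.5 FPKM, 5364 at 5 FPKM, 11273 with 10 counts also required and 12311 over merged exon length. The share of counts held by the 100 genes of highest count was 21.7%, or 19.5% without mitochondrial genes. Of 65 partner ratios, 16 moved by over 1.5 times over merged exon length. Set against their counting intervals, 42 fell outside and 2 more changed direction over merged exon length. On the log2 scale LAMB1 over LAMC1 turned to 0.27 and MMP9 over TIMP1 to -0.31 there. By CPM, with no division by length, LAMB1 over LAMC1 turned to 0.22, S100A10 over ANXA2 to -2.04 and ZEB1 over ZEB2 to -0.02. Another 54 ratios fell outside their counting intervals by CPM. The number of detected list members changed by over 1.5 times in 5 of 60 lists at 0.5 FPKM and in 25 at 5 FPKM. Without genes that share over 10% of their exon bases, the spread of the proteasome core fell from 2.96 to 0.94. Under the same setting the ribosomal proteins went from 1.84 to 1.65 and the nuclear respiratory chain from 1.85 to 1.39. The spread of the MCM helicase was 0.75 over merged exons. No order between neighbouring levels within 1.5 times should be read, since 1 library gives no spread between cultures. No paired analysis was possible because a single library was used.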
